A study of Mus musculus with 18 samples.

Results

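The peaks described here lie deep in the 3' untranslated regions (3' UTRs) of mouse mRNAs. They are the m6A-seq peaks whose centre falls in the 3' UTR of a gene's canonical mRNA (mm10, GENCODE release M21) more than 200 nt past the stop codon, counted along the spliced transcript. Of 102130 peaks in 7 library peak lists, 15545 met this rule, and 20643 were centred within 200 nt of a stop codon on either side. In m6A-seq an antibody pulls down RNA pieces bearing N6-methyladenosine (m6A), and a peak is a stretch where these pieces exceed the unenriched input. The lists came from 3 libraries of C57BL/6 embryonic stem cells (ESCs, line BVSC) grown without serum in LIF and the kinase inhibitors CHIR99021 and PD0325901, and from 3 libraries of embryoid bodies (EBs) of the same line. EBs are aggregates in which ESCs differentiate, cultured here for 8 to 21 days in medium with 15% fetal bovine serum. The seventh list came from Mettl3-knockout C57BL/6 ESCs, which the labels mark as a negative control and for which they name neither the line nor the number of clones. A final list deposited by the authors for each of ESCs, EBs and fibroblasts of E13.5 embryos (MEFs) has no replicate error.

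m6A is placed on nuclear RNA mainly by METTL3 with its partner METTL14, most often in the context DRACH, of which GGACT is a frequent form. It is concentrated around stop codons and in the last exon. The 3' UTR is also where microRNAs and proteins such as Pumilio and AU-rich element binders attach, and where YTH-domain readers of m6A can direct an mRNA to decay. METTL16 is a separate enzyme, known from human cells to methylate hairpins with the core TACAGAG in the 3' UTR of MAT2A, the gene of an S-adenosylmethionine synthetase.

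The sequences below are chosen examples from genes with deep peaks. The first set gives a GGACT site (capitals) from 8 of the 12 widest deep regions that had a deep peak in every ESC and EB library, on the transcript strand of GRCm38, the mm10 assembly. Each is the GGACT nearest to the mean peak centre, and each lay inside a peak of all 6 libraries. The distance from that centre ran from 13 nt in Smg1 to 270 nt in Amotl2, so some sites are far from it. The sites of Tsc22d1 and Myo9b, at 362 and 384 nt, also lay inside peaks of all 6 libraries but are not shown. The Lrch3 site lay inside peaks of only 4 libraries and is not shown either, and no site is given for Peg10. A match is a description and does not show which adenosine was methylated.
Amotl2 (chr9:102732656-102732676, plus strand): accagcagGGACTgggagagg
Sel1l (chr12:91809101-91809121, minus strand): cccacagaGGACTttgcccca
Klf13 (chr7:63890558-63890578, minus strand): atcccacaGGACTgatggtgg
Ggta1 (chr2:35401269-35401289, minus strand): acctcagcGGACTgaggacca
Slc7a1 (chr5:148331762-148331782, minus strand): gcccgcgtGGACTagggtgac
Fgf4 (chr7:144863528-144863548, plus strand): ccatttttGGACTggccaaca
Smg1 (chr7:118134989-118135009, minus strand): tcagaaatGGACTgaaaaaat
Itga5 (chr15:103344906-103344926, minus strand): tgccaacaGGACTtcccatct

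The second set gives the 5 TACAGAG sites (capitals) in the 3' UTR of mouse Mat2a, whose deep peak was the widest of the 15 deep peaks in the knockout library. All lie on the minus strand of chromosome 6, and they are named by the distance of the motif past the stop codon. The search for this motif was added after the knockout peak had been seen.
Mat2a, 43 nt (chr6:72434239-72434261): gcgtaggtTACAGAGaagccttc
Mat2a, 827 nt (chr6:72433455-72433477): ttgtgataTACAGAGaagtcaca
Mat2a, 1006 nt (chr6:72433276-72433298): ggtgtagcTACAGAGaaaccagc
Mat2a, 1121 nt (chr6:72433161-72433183): ggcgtaagTACAGAGaagccatc
Mat2a, 1340 nt (chr6:72432942-72432964): tggtgtggTACAGAGaagccagc

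The third set gives the 25 bases at the centre of 4 other deep knockout peaks. The first 3 are simple repeats and the last is not, and they were chosen after the sequences of the knockout peaks had been seen.
Pigr (chr1:130851887-130851911, plus strand): agaagaagaagaagaagaagaagaa
Ccn3 (chr15:54752912-54752936, plus strand): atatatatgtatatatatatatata
Cd300a (chr11:114903760-114903784, plus strand): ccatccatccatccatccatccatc
Ino80d (chr1:63051064-63051088, minus strand): gagcacctggtgatcggagacaggc

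The libraries differed in the length of their lists, from 10515 peaks in ESC replicate A to 21509 in EB replicate B, and the knockout list held 2043. The files give positions only, so read depth is unknown. A peak needs an expressed transcript as well as methylation, and these parts of its presence cannot be told apart here. Of 6 ESC marker genes, 4 to 6 had an mRNA peak in each ESC and EB library. Of 8 markers of differentiated EBs, 2, 3 and 4 had one in ESC replicates A, B and C against 6, 7 and 5 in EB replicates A, B and C. Of 6 fibroblast markers, 1 to 5 had one in these libraries. Markers of differentiation were therefore not absent from the ESC lists.

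ESC replicate C stood apart among the deep peaks. Bases in lower case in the reference sequence mark repeats and low-complexity stretches, and 25.8% of its 3602 deep peaks were centred in such bases. The share was 7.35% in ESC replicate A and 11.2% in ESC replicate B. In EB replicates A, B and C it was 8.30%, 8.27% and 8.98%. Stop codon peaks were centred in such bases in 4.89% to 7.08% of cases over the 6 libraries, again highest in ESC replicate C. Of the 928 repeat-centred deep peaks of ESC replicate C, 26.6% overlapped a peak of any of the other 5 ESC and EB libraries, against 79.4% of its 2674 other deep peaks. In those 5 libraries 69.7% to 91.7% of the repeat-centred deep peaks were found again in this way. Comparisons of the cell types below are therefore also given without ESC replicate C.

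**Figure D1:**
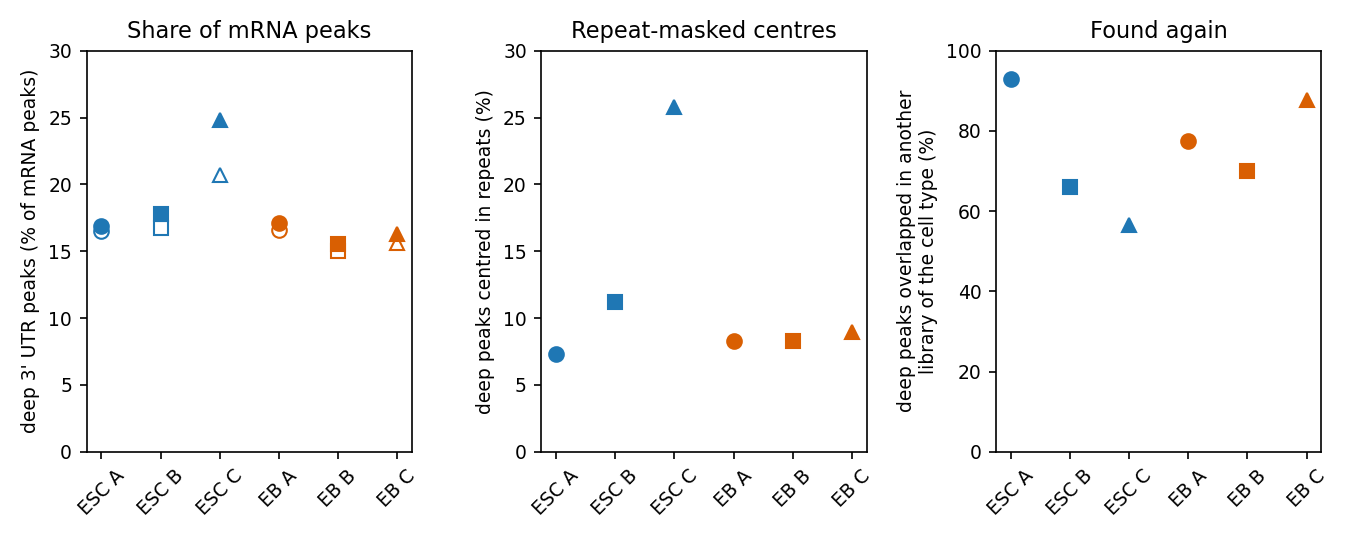
Each point is 1 library (blue ESC, orange EB; circle, square and triangle for replicates A, B and C). The panels show deep peaks as a percent of mRNA peaks (open symbols without repeat-centred peaks), deep peaks centred in repeat-masked bases (%), and deep peaks overlapped by a peak of another library of the same cell type (%). ESC replicate C is highest in the left and middle panels, with 24.8% and 25.8%, and lowest on the right with 56.5%.

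The first question was how much of the mRNA methylation map lies deep in 3' UTRs and whether that changed on differentiation. There were 1307, 3096 and 3602 deep peaks in ESC replicates A, B and C, in 1168, 2466 and 2904 genes. In EB replicates A, B and C there were 2760, 2938 and 1827, in 2246, 2356 and 1562 genes. Deep peaks were 16.9%, 17.8% and 24.8% of the peaks centred in canonical mRNAs in the ESC libraries, and 17.1%, 15.5% and 16.3% in the EB libraries. The groups overlapped, and only ESC replicate C lay above all others. The mean share was 19.8% ± 4.34 in ESCs and 16.3% ± 0.791 in EBs (SD, n = 3 each). This difference of -3.54 percentage points did not pass a 2-sided exact permutation test (p = 0.2, 1 after Benjamini-Hochberg adjustment over 5 comparisons), whose smallest possible p is 0.1. Without ESC replicate C the difference was -1.05 percentage points.

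Among peaks centred in a 3' UTR, 48.3%, 56.5% and 61.4% were deep in ESC replicates A, B and C and 55.7%, 55.7% and 51.8% in EB replicates A, B and C. The groups overlapped. The difference between cell types was -1.001 percentage points (exact permutation p = 0.8, adjusted p = 1), and 2.02 without ESC replicate C. The authors' final lists gave shares of mRNA peaks close to those of the libraries. Of their mRNA peaks, 18.1% were deep in ESCs (1782 peaks), 15.3% in EBs (1220 peaks) and 18.4% in MEFs (1759 peaks).

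Deep peaks were mostly near their boundary. Their median distance past the stop codon was 476, 542 and 638 nt in ESC replicates A, B and C and 515, 543 and 503 nt in EB replicates A, B and C. The groups overlapped, and the mean difference was -31.7 nt (exact permutation p = 0.8, adjusted p = 1), turning to 11.3 nt without ESC replicate C. Between 22.0% and 33.4% of the deep peaks of a library lay more than 1000 nt past the stop codon, and 7.35% to 12.5% more than 2000 nt. The median peak sat at 34.1% to 41.4% of the length of its 3' UTR, and 5.59% to 8.66% of deep peaks were centred within 200 nt of the annotated transcript end. At least 99.6% of them were in the last exon.

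Because long 3' UTRs are fewer than short ones, peaks were also counted per length of sequence, over the 3' UTRs of genes with an mRNA peak in the same library. The full annotated 3' UTR of the canonical transcript was used, and how much of it these cells express is unknown here. The density fell at each step away from the stop codon. It was 137 ± 5.23 peaks per 100 kb (SD, n = 6 libraries) in the first 200 nt and 60.0 ± 6.62 from 200 to 500 nt. It was 25.7 ± 5.32 from 500 to 1000 nt and 13.3 ± 4.32 from 1000 to 2000 nt. It was 7.64 ± 2.86 from 2000 to 4000 nt and 3.31 ± 1.52 beyond 4000 nt. This order held in each of the 6 libraries. Densities beyond 4000 nt ran from 1.89 to 6.11, and those from 200 to 500 nt from 50.9 to 68.9, both highest in ESC replicate C. The knockout library showed no such gradient, with 1.29 peaks per 100 kb in the first 200 nt and 1.24 from 1000 to 2000 nt, on 4 and 7 peaks.

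**Figure D2:**
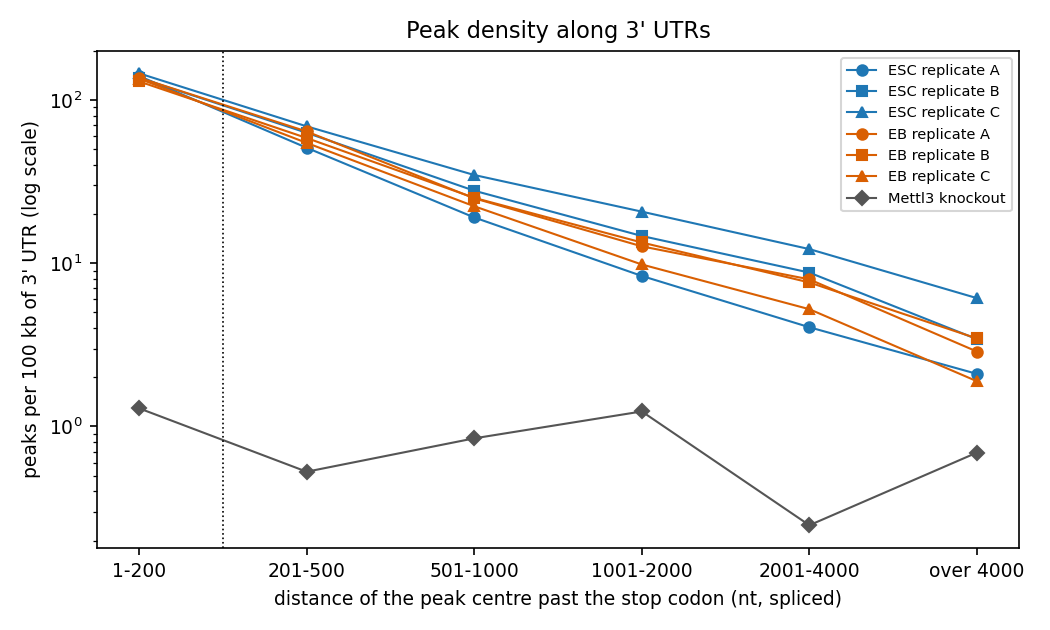
Peaks per 100 kb of 3' UTR (log scale) against the distance of the peak centre past the stop codon (nt, spliced), 1 line per library, over genes with an mRNA peak in that library. The dotted line marks 200 nt, the start of the deep range. All 6 ESC and EB libraries fall from about 137 to 3.31 peaks per 100 kb on average, and the knockout stays between 0.248 and 1.29.

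Longer 3' UTRs more often had a deep peak, in part by the rule, since they hold more sequence past 200 nt. How much of the rise below comes from the rule was not tested. Among genes with an mRNA peak in a library, 6.19% ± 1.68 (SD, n = 6) of those with a 3' UTR of 200 to 500 nt had one, and 26.6% ± 3.99 of those with 500 to 1000 nt. The share was 32.5% ± 5.26 for 1000 to 2000 nt, 38.7% ± 6.42 for 2000 to 4000 nt and 40.5% ± 8.54 above 4000 nt. The rise from the shortest to the next class was in each case larger than the spread between libraries, while the ranges of neighbouring classes above 500 nt overlapped. Of the genes with a deep peak in a library, 21.4% to 34.7% also had a stop codon peak there. Between 30.7% and 55.0% of genes with a deep peak had no mRNA peak of any other place in that library, highest in ESC replicate A, the shortest list. Of genes with a deep peak, 10.8% to 19.5% had more than 1, and up to 8 were found in a gene.

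Deep peaks carried GGAC less often than stop codon peaks. GGAC occurred in the sense sequence up to 50 nt from the centre in 58.9%, 53.4% and 48.5% of deep peaks in ESC replicates A, B and C. The share was 50.7%, 51.6% and 60.3% in EB replicates A, B and C. The mean over libraries was 53.9% ± 4.72 for deep peaks and 59.5% ± 2.41 for stop codon peaks (SD, n = 6). Deep peaks were lower in 6 of 6 libraries, with a mean difference of -5.55 ± 3.15 percentage points. Exchanging the classes within libraries gave an exact permutation p of 0.03125, the smallest that 6 libraries allow, and the same value after Benjamini-Hochberg adjustment over 3 comparisons. With 1 library left out the smallest possible p is 0.0625. By distance the share was 53.8% ± 4.39 at 200 to 500 nt, 54.4% ± 4.60 at 500 to 1000 nt, 54.5% ± 5.86 at 1000 to 2000 nt and 52.6% ± 5.96 beyond, differences within the spread between libraries. ESCs and EBs differed by 0.609 percentage points in this share (exact permutation p = 0.9, adjusted p = 1), and by -1.95 without ESC replicate C.

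Repeat-centred deep peaks held GGAC less often than the others, in 39.3% ± 6.48 against 56.2% ± 3.97 (SD, n = 6), and were lower in 6 of 6 libraries. Without repeat-centred peaks of either class, an alternative chosen after seeing the data, deep peaks remained below stop codon peaks by -3.87 percentage points on average (exact permutation p = 0.03125).

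As a background for motifs, the deep parts of the same 3' UTRs were cut into windows of 101 nt outside peaks. GGAC was present in 23.3% ± 0.288 of these windows and GGACT in 8.07% ± 0.0915, against 25.3% ± 2.45 of deep peaks for GGACT (SD, n = 6 libraries). In stop codon peaks GGACT was at 26.9% ± 1.88, and its difference from deep peaks did not pass (exact permutation p = 0.09375). Other forms of the consensus were also more frequent in deep peaks. GAACT was found in 19.5% against 9.67% of windows, and AGACT in 22.2% against 10.7%, each higher in 6 of 6 libraries. Stop codon peaks held them in 18.8% and 21.4%, slightly below deep peaks, and these differences were not tested. The windows were poorer in G and C, at 44.5% against 50.03% in deep peaks and 52.5% in stop codon peaks, and the part of base composition in these differences was not tested.

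Elements rich in A and T were rarer at deep peaks than in the rest of the same 3' UTRs. ATTTA, the core of AU-rich elements, occurred in 6.38% of deep peaks and 14.1% of windows. AATAAA, the polyadenylation signal, occurred in 2.43% against 5.90%. TGTANAT, the core that Pumilio proteins bind (N is any base), occurred in 2.85% against 5.32%. All 3 were lower in 6 of 6 libraries. The windows were poorer in G and C, and the part of base composition in these 3 differences was not tested either. Matches to microRNA seeds were near the background. GCACTT, matched by the seed of the miR-290 and miR-302 families of ESCs, was found in 2.99% of deep peaks and 2.93% of windows. CTACCTC, matched by the seed of let-7, was found in 0.821% and 0.727%. TACAGAG was found in 1.32% and 1.20%, and it exceeded the windows in only 2 of 6 libraries, most in ESC replicate C with 2.25%. All 10 motifs were sought on the transcript strand only, each GGACT also counts as a GGAC, and each of these matches is a description of letters.

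**Figure D3:**
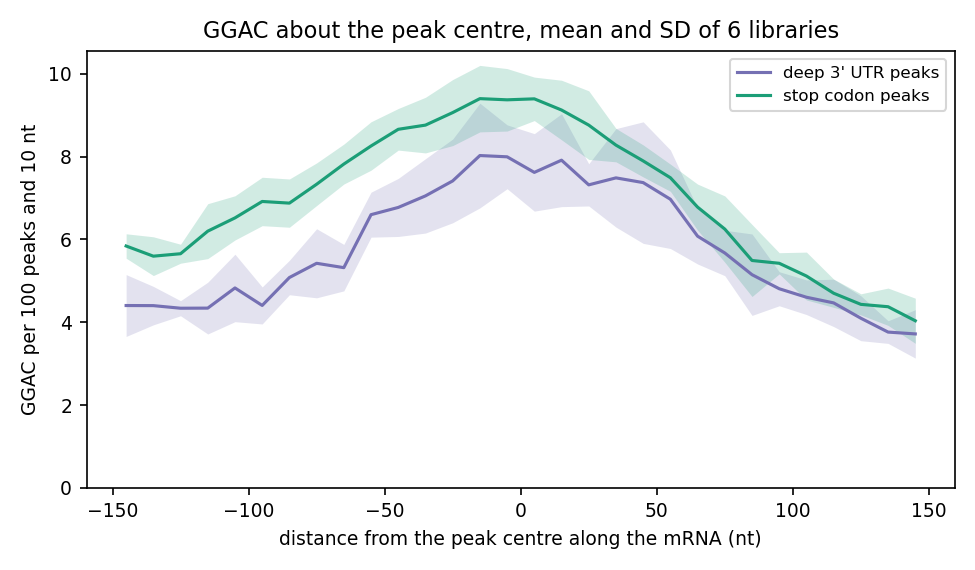
Occurrences of GGAC per 100 peaks in bins of 10 nt against the distance from the peak centre (nt), for deep and stop codon peaks. Lines are means and bands the SD of 6 libraries. Both rise toward the centre, to 8.03 and 9.40 in the bin that begins 20 nt before it, from 4.40 and 5.84 at the far 5' end.

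Deep peaks had a smaller median width than stop codon peaks and were less often found again. The median width was 253, 174 and 170 bp in ESC replicates A, B and C and 190, 185.5 and 189 bp in EB replicates A, B and C. In each of the 6 libraries the deep median was below that of stop codon peaks, by a mean difference of -29.7 ± 8.12 bp (SD, n = 6, exact permutation p and adjusted p = 0.03125). The widest peaks went the other way, since 4.64% to 16.4% of deep peaks and 4.24% to 13.9% of stop codon peaks were at least 500 bp wide, higher for deep peaks in 6 of 6 libraries. Between cell types the medians differed by -10.8 bp (exact permutation p = 1, adjusted p = 1), by 16.2 bp without ESC replicate A and by -25.3 bp without ESC replicate C. A deep peak overlapped a peak of another library of its cell type in 93.0%, 66.1% and 56.5% of cases in ESC replicates A, B and C, and in 77.4%, 69.9% and 87.6% in EB replicates A, B and C. The shortest list of each cell type had the highest share. Deep peaks were below stop codon peaks here too in 6 of 6 libraries, by a mean difference of -9.83 ± 6.39 percentage points (exact permutation p and adjusted p = 0.03125). In ESC replicate C the gap was -21.7, and without that library the mean difference was -8.53.

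Joining the overlapping deep peaks of the 6 libraries gave 6286 regions in 4635 genes. A peak of only 1 library made up 45.9% of them, and 17.5% were overlapped by peaks of all 6. For stop codon regions these shares were 27.4% and 30.4%, and over all mRNA regions 41.5% and 17.1%, close to those of the deep regions. In 679 regions of 655 genes every library had a peak that was itself centred deep. These regions lay at a median of 495.5 nt past the stop codon, with mean widths of 128 to 1235 bp. The final lists overlapped 94.99% of them in ESCs, 93.4% in EBs and 83.4% in MEFs (566 regions). These regions were chosen for peaks in every ESC and EB library, so high overlap with the ESC and EB lists was largely built in. Of all deep peaks of a library, counted singly and not as joined regions, the MEF list overlapped 49.8% on average. The knockout overlapped 2 of the 679 regions, in Mat2a and Ino80d.

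The widest such region was in Peg10, a paternally expressed imprinted gene derived from a retrotransposon (chr6:4756976-4758994, centred 2611 nt past the stop codon). Its peak measured 608, 361 and 1404 bp in ESC replicates A, B and C and 2015, 2012 and 1012 bp in EB replicates A, B and C. The ESC and EB values overlapped. The region held 8 GGAC sites and no knockout peak.

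Amotl2, an angiomotin family member that binds the Hippo effector YAP, had a region at 690 nt (chr9:102731695-102733166). Its peaks were 1223, 1192 and 1126 bp wide in the ESC libraries and 1457, 1296 and 587 bp in the EB libraries, with the narrowest in EB replicate C. Sel1l, the adaptor of the Hrd1 ligase in degradation from the endoplasmic reticulum, had peaks of 1093, 1062 and 792 bp in ESCs and 1255, 1595 and 1002 bp in EBs (chr12:91808415-91810056). The groups overlapped in both genes. In Klf13, a zinc-finger transcription factor, widths were 1188, 989 and 978 bp in ESCs and 1303, 1166 and 1021 bp in EBs, and its region (chr7:63890043-63891562) held 13 GGAC sites, the most among the 12 widest.

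Fgf4, the growth factor through which ESCs signal to leave the naive state, had peaks of 1068, 810 and 728 bp in ESCs and 1194, 1168 and 957 bp in EBs. Its region (chr7:144862809-144864002) was the only one of the 12 widest that the MEF list lacked. Smg1, the kinase that phosphorylates Upf1 in nonsense-mediated decay, had 844, 1057 and 859 bp in ESCs and 1096, 1044 and 897 bp in EBs. That region (chr7:118134445-118135540) held 2 GGAC sites despite its width.

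Itga5, the alpha chain of a fibronectin receptor, varied little, with 929, 960 and 903 bp in ESCs and 1005, 1039 and 876 bp in EBs. Its region (chr15:103344323-103345391) covered much of a 3' UTR of 983 nt. The remaining widest regions were in Lrch3, Ggta1, Tsc22d1, Slc7a1 and Myo9b, with mean widths of 963 to 1099 bp. Tsc22d1 had 973, 865 and 951 bp in ESCs and 1031, 1220 and 1076 bp in EBs, without overlap. The Lrch3 region also overlapped an exon of another gene, so its peak could not be given to Lrch3 alone. Across all 679 regions the median width was 315, 337 and 287 bp in ESC replicates A, B and C and 433, 476 and 270 bp in EB replicates A, B and C, so peaks of EB replicates A and B were wide in general.

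**Figure D4:**
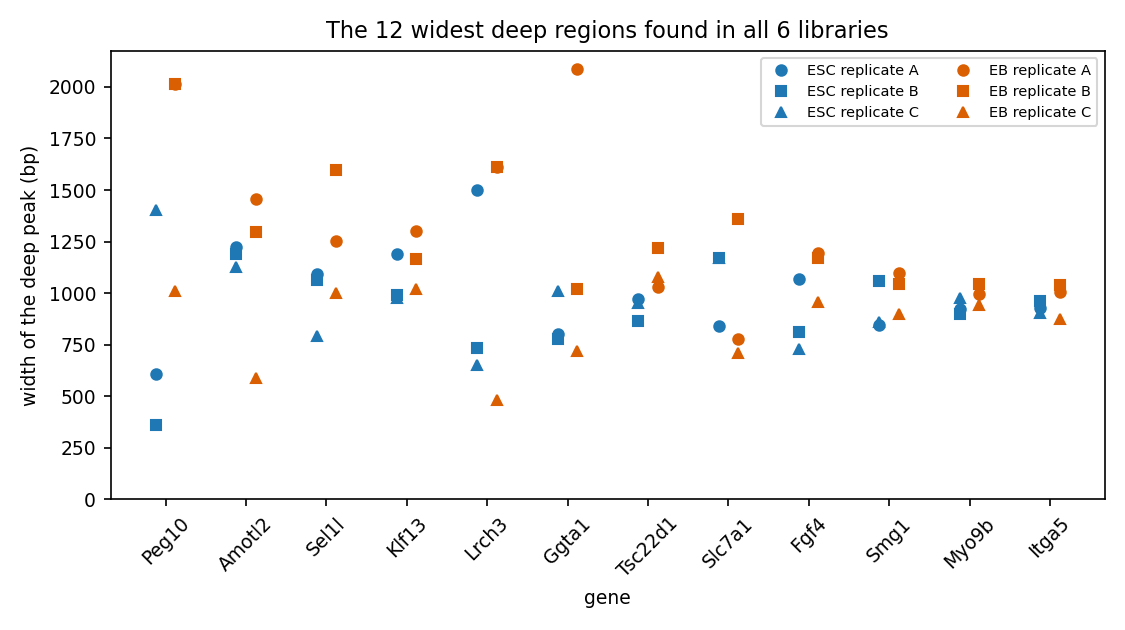
Width of the deep peak (bp) in each library for the 12 widest deep regions found in all 6 libraries, with ESC in blue, EB in orange and circle, square and triangle for replicates A, B and C. Peg10 spans 361 to 2015 bp, whereas Itga5 spans 876 to 1039 bp.

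Some 3' UTRs held several such regions. Of the 655 genes, 23 had at least 2, and Zfp41, a zinc-finger gene with a 3' UTR of 7171 nt, had 3, centred at 340.5, 1803 and 2494 nt. In the middle Zfp41 region (chr15:75623778-75624963) the widest peak of each library measured 599, 367 and 337 bp in ESCs and 1162, 643 and 572 bp in EBs. ESC replicates B and C and EB replicates B and C had further, narrower peaks there. EB replicate A had a single peak from 1146 to 2307 nt, so these widths also reflect how a library's signal was split into peaks. The farthest of the 3 lay 4677 nt before the transcript end, so the last part of this 3' UTR had none of them. Among the genes tied at 2, those described here are the first by gene identifier. Kmt2a, a histone H3 lysine 4 methyltransferase, had 2 regions far from its stop codon, at 2141 and 2971 nt. Chmp1a of the ESCRT-III complex had 2 at 315.8 and 778.3 nt. Celsr1, a cadherin of planar cell polarity, had 2 at 321.5 and 1321 nt, and Crk, an adaptor of tyrosine kinase signals, 2 at 376.5 and 2133 nt.

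The deep region farthest from its stop codon among the 679 was in Ino80d, a subunit of the INO80 chromatin remodeller, at 6913 nt in a 3' UTR of 10182 nt (chr1:63050823-63051276). Its peak was 294, 378 and 272 bp wide in the ESC libraries and 399, 394 and 210 bp in the EB libraries. The region held 0 GGAC sites and was overlapped by a knockout peak of 149 bp. Next came Fam210a at 6117 nt, then Tead1, the transcription factor through which YAP acts, at 5975 nt. The Tead1 peak measured 366, 405 and 355 bp in ESCs and 468, 522 and 435 bp in EBs, and these groups did not overlap. The share of all 679 regions whose widths separate the cell types was not counted. Snhg11 followed at 4541 nt and Trim71, an RNA-binding ubiquitin ligase and a known target of let-7, at 4285 nt. At the 200 nt boundary, the nearest regions inside were those of Psmd8 (220.5 nt, mean width 164.7 bp) and Zfp324 (224.3 nt, 230.7 bp). The nearest outside were those of Lrpap1 (179.7 nt, 392.5 bp) and Hspg2 (178.0 nt, 548.3 bp).

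Few deep regions separated the cell types. A peak in all 3 ESC and no EB library was found for 21 regions in 21 genes, 0.334% of the deep regions, where the share over all 28656 mRNA regions was 0.234%. A peak in all 3 EB and no ESC library was found for 37 regions in 37 genes, 0.589%, where the share over all mRNA regions was 1.12%. The ESC count rose to 191 without ESC replicate A and the EB count to 192 without EB replicate C, the shortest list of each type. Without ESC replicate B they were 33 and 119, without ESC replicate C 34 and 76, and without EB replicate B 46 and 68. The counts thus depend on which libraries are used, and an absent peak can be an absent transcript. They were set beside all mRNA regions as a description, with no test.

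The widest ESC-only regions were in Zfp488, a zinc-finger repressor, Insr, the insulin receptor, and Rex2, a zinc-finger gene. The Zfp488 peaks were 514, 124 and 954 bp wide in ESC replicates A, B and C. Insr had 348, 135 and 407 bp, with the ESC replicate B peak centred outside the deep range, and Rex2 340, 229 and 275 bp. Hoxc13, Ap1s3 and Sesn1 followed. The regions of Zfp488, Rex2 and Ap1s3 held 0 GGAC sites.

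The widest EB-only region was in Spry4, a feedback inhibitor of FGF and ERK signalling, with peaks of 731, 1578 and 848 bp in EB replicates A, B and C. No ESC library had a Spry4 mRNA peak in any place. Grem1, an antagonist of BMPs, had 697, 1228 and 166 bp. Dll1, a Notch ligand, had 345, 389 and 194 bp, and Hes6, a transcription factor of the Hes family, 667, 343 and 161 bp. Kirrel2 and Cgnl1 complete the 6. In Spry4, Grem1, Kirrel2, Cgnl1 and Hes6 at least 1 of these peaks was centred outside the deep range.

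Deep peaks were also read across functional groups of genes. Of 4573 genes with an mRNA peak in all 3 ESC libraries, 909 had a deep peak in all 3, which is 19.9%. In EBs 1077 of 5626 did so, which is 19.1%, and 685 genes had a deep peak in all 6 libraries. The counts below are read beside these shares and carry no test. The lists were not matched for 3' UTR length, and longer 3' UTRs more often had a deep peak.

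Genes of mRNA decay and 3' UTR binding had such peaks in 8 of 15 measured members in ESCs (53.3%) and 9 of 22 in EBs (40.9%). The 3' UTRs of those 8 ran from 1034 nt in Cnot2 to 7240 nt in Dcp2. The median was 1358 nt for genes with an mRNA peak in all 3 ESC libraries, and the part of length was not tested. The members with such peaks are named next. They included Cnot2 of the CCR4-NOT deadenylase, Pan3 of a second deadenylase, the decapping proteins Dcp1a and Dcp2 with the helicase Ddx6, the AU-rich element binder Elavl1, and Smg1 of nonsense-mediated decay. Upf1, the central helicase of that pathway, joined them in EBs. The Ddx6 peak was 391, 301 and 416 bp wide in ESC replicates A, B and C and 870, 886 and 870 bp in EB replicates A, B and C, with no overlap between the groups. How often widths separate in this way over all regions was not counted, and peaks of EB replicates A and B were wide in general. Elavl1 was narrow throughout, at 152, 135 and 115 bp in ESCs and 133, 115 and 137 bp in EBs. Pan3 had 320, 521 and 405 bp in ESCs and 726, 759 and 433 bp in EBs, and its groups overlapped.

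Of the pluripotency list, 5 of 14 members in ESCs (35.7%) and 5 of 15 in EBs (33.3%) had a deep peak in all 3 libraries, the same 5 genes. Besides Fgf4 these were the transcription factors Esrrb and Sall4, the AKT co-activator Tcl1 and the Nodal co-receptor Tdgf1. The Sall4 peak measured 367, 441 and 337 bp in ESCs and 495, 847 and 399 bp in EBs. The Tcl1 peak measured 229, 448 and 312 bp in ESCs and 394, 499 and 164 bp in EBs. Neither separated the cell types. Nanog had an mRNA peak in all 6 libraries and a deep one in 0.

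The list of m6A writers, readers and erasers had no gene with a deep peak in all 3 libraries of a type, although 13 of its 20 members in ESCs and 14 in EBs had an mRNA peak in all 3. The median 3' UTR length was 1594 nt over all 20 members, with or without peaks. It was 1358 nt over genes with an mRNA peak in all 3 ESC libraries. These sets are unlike, and the part of length was not tested. Among cleavage and polyadenylation factors, 1 of 12 members in ESCs (Cpsf2) and 1 of 14 in EBs (Cpsf4) had such a peak. Of 40 ribosomal protein genes, with a median 3' UTR of 57.5 nt, 0 had a deep peak in any library, but only 3 had any mRNA peak in the 6 libraries and 0 had one in all 3 of a type.

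In the microRNA pathway, 3 of 10 members in ESCs and 3 of 11 in EBs had a deep peak in all 3 libraries. These were the effector Ago2, its partner Tnrc6c and Trim71. The Ago2 peak, 1269 nt into a 3' UTR of 11064 nt, was 359, 505 and 512 bp wide in ESCs and 578, 632 and 492 bp in EBs. The Trim71 peak was 182, 149 and 157 bp in ESCs and 169, 97 and 141 bp in EBs. The groups overlapped in both.

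Signalling genes were represented as well. Of the BMP, Nodal and Smad list, 6 of 16 members in ESCs (37.5%) and 4 of 19 in EBs (21.1%) had a deep peak in all 3 libraries. These included Acvr1b, a type I receptor of Nodal and activin, the effector Smad3 and the Smad corepressor Ski. The ligand Nodal, the BMP target Id2 and the Smad ubiquitin ligase Smurf2 were counted in ESCs, with deep peaks in 2, 2 and 0 EB libraries. Smurf1 was counted in EBs, with a deep peak in 1 ESC library. Counting regions with a deep peak in any of the 6 libraries, not in all of them, Smad3 had 6 in a 3' UTR of 3495 nt. Its widest measured 366, 206 and 229 bp in ESCs and 322, 487 and 237 bp in EBs. Acvr1b had 388, 624 and 606 bp in ESCs and 781, 693 and 434 bp in EBs.

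Of the FGF and ERK feedback list, 3 of 9 members in ESCs and 3 of 12 in EBs did so. The transcription factor Etv5 had peaks of 522, 473 and 420 bp in ESCs and 552, 538 and 503 bp in EBs. The phosphatase Dusp6 had a deep peak in 0 ESC and all 3 EB libraries (211, 209 and 267 bp), but only 1 ESC library had any Dusp6 mRNA peak. Ccnd2, a cyclin of the G1 phase, likewise had deep peaks of 217, 227 and 165 bp in EBs and 0 in ESCs, where 1 library had an mRNA peak of it.

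In the Wnt receptor list 3 of 12 members in ESCs had such peaks and 1 of 12 in EBs. They included the receptor Fzd5, at 3973 nt, with 239, 296 and 135 bp in ESCs and 287, 289 and 171 bp in EBs. Mesd, a chaperone of the Lrp5 and Lrp6 co-receptors, had wide peaks of 1201, 1283 and 907 bp in ESCs and 1272 and 1319 bp in EB replicates A and B, and none in EB replicate C. Among Polycomb genes 2 of 16 in ESCs (Jarid2 and Cbx7) and 1 of 18 in EBs (Cbx7) had one. The Cbx7 peak measured 553, 500 and 471 bp in ESCs and 685, 738 and 553 bp in EBs.

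Of the cell cycle and Myc list, 2 of 8 in ESCs (Mycl and Max) and 4 of 14 in EBs (also Ccnd2 and E2f3) had a deep peak in all 3 libraries. Among endoderm and mesoderm regulators the counts were 0 of 5 in ESCs and 2 of 10 in EBs, Gata6 and Snai1. The Snai1 peaks in EBs were 489, 508 and 360 bp wide, and ESC replicate C alone among ESCs had one, of 161 bp.

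The knockout comparison asked which deep peaks were still called without Mettl3. The knockout library held 15 deep peaks, 0.876% of its 1712 mRNA peaks (Wilson 95% interval 0.532 to 1.44, counting error only), against 16.9% to 24.8% in the 3 ESC libraries. With 1 knockout library, this difference has no replicate check and no test, and the settings of its peak calling are not known here. Of the deep peaks of ESC replicates A, B and C, 2, 5 and 10 were overlapped by a knockout peak. These were 0.153%, 0.161% and 0.278%, with a mean of 0.197% ± 0.0696 (SD, n = 3) and 0.157% without ESC replicate C. For stop codon peaks the mean share was 0.396%, for coding-sequence peaks 1.48% and for peaks near transcript starts 36.7%. Leaving out repeat-centred peaks from the ESC and knockout lists alike brought the deep share to 0.0521%. This removed 14 of the 15 deep knockout peaks, so a fall was built in. The shares of the other classes were not recomputed in this way.

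Of the 15 deep knockout peaks, 14 were centred in repeat-masked bases, 1 had GGAC within 50 nt of its centre, and their median width was 99 bp. Peaks of the 3 ESC libraries overlapped 10 of them and 5 were overlapped by none of the 6 libraries. Rac2, a GTPase of blood cells, and Foxr1, a forkhead gene, had no mRNA peak in any of the 6. In Pigr, whose centre is a GAA repeat, and in Gm10521 and Dsg3, ESC replicate C was the only library with an overlapping peak. The AT-rich Ccn3 peak and those of Zbtb25 and Gadl1 were overlapped in 2 ESC and 2 EB libraries each. Cd300a, with the CATC repeat, was overlapped in 1 ESC and 1 EB library, and Zfp459, Zfyve19 and Elovl6 in 0.

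Mat2a and Ino80d alone had a deep peak in the knockout and in all 6 other libraries. The knockout peak in Mat2a (chr6:72432828-72433455) was 628 bp wide and centred 1151 nt past the stop codon of a 3' UTR of 1494 nt. The other 14 deep knockout peaks were 77 to 149 bp wide. In ESC replicates A, B and C the Mat2a peak ran from 934 to 1451, 928 to 1434 and 955 to 1403 nt past the stop codon. In EB replicates A, B and C it ran from 800 to 1457, 765 to 1467 and 868 to 1424 nt. The knockout peak ran from 838 to 1465 nt, within the range of the EB borders.

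The TACAGAG sites at 1006, 1121 and 1340 nt lay inside the deep Mat2a peak of all 7 libraries. The site at 827 nt lay inside the peaks of EB replicates A and B only. The site at 43 nt lay inside a separate peak at the stop codon in the knockout and in EB replicate C, and outside the peaks of the other libraries. At least 1 TACAGAG was present in 15.7% of the 17250 canonical 3' UTRs longer than 200 nt, and 11 of them held at least 5. The deep knockout peak in Mat2a was counted as repeat-centred, since its central base is in lower case, so leaving out repeats also removed it.

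**Figure D5:**
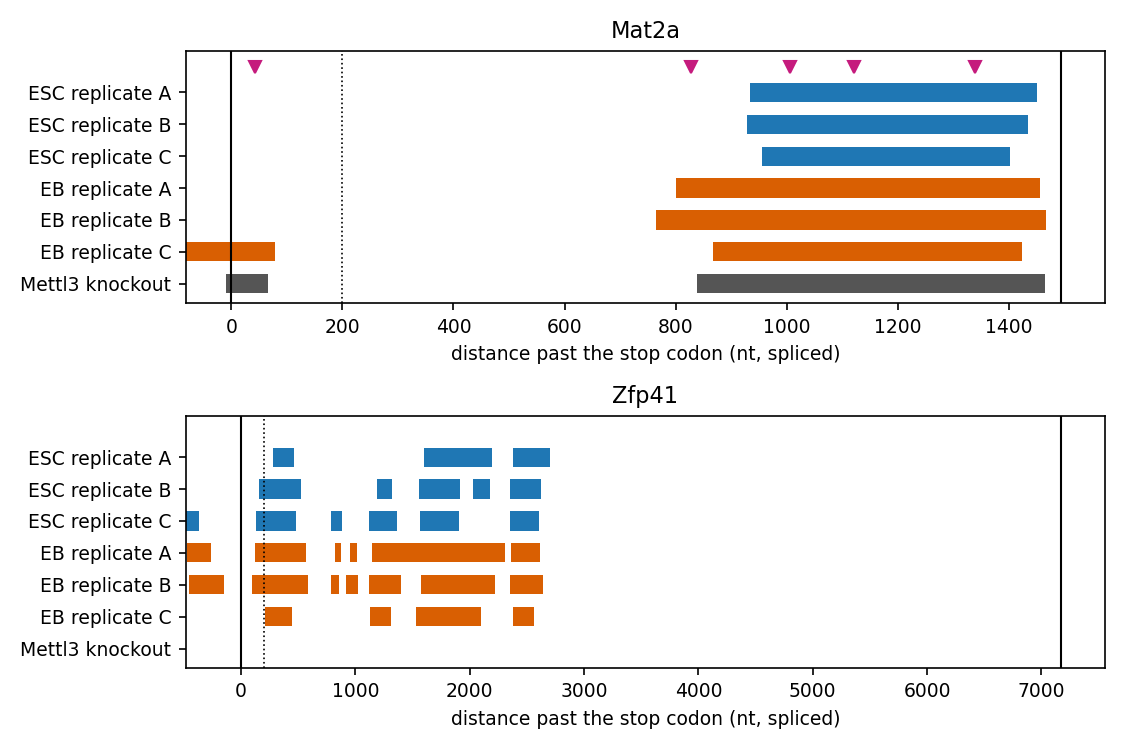
Peaks of the 7 libraries along the 3' UTRs of Mat2a and Zfp41, against the distance past the stop codon (nt, spliced). Solid lines mark the stop codon and the transcript end, the dotted line marks 200 nt, and triangles mark the 5 TACAGAG sites of Mat2a. The deep Mat2a peak is present in all 7 libraries including the knockout, while Zfp41 has peaks up to about 2494 nt in the 6 ESC and EB libraries and none in the knockout.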

How the data were processed

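The deposited files hold genomic positions of peaks, with no count, score or p-value. The tools that the submitters' processing notes list are MACS 1.4.1, TopHat2 2.0.10 and CASAVA 1.8.2, with build mm10. Thresholds and the handling of the input libraries are not given in the sources used here. Groups came from the sample titles.

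Each peak was placed by its centre on 1 canonical transcript per gene (best APPRIS rank, then longest coding sequence). In several genes, coding sequence took precedence, then the 3' UTR. Exons of other genes overlapped 2.94% to 4.04% of deep peaks. Positions count from 1, and 0 peaks passed a chromosome end. Overlap meant at least 1 bp. Python 3.11.15, NumPy 2.4.6, SciPy 1.17.1, pysam 0.24.0 and matplotlib 3.10.9 were used, and placement was tested on simulated peaks.

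Named regions were the 12 widest, the 5 genes with most regions (all but 1 tied at 2 regions and taken in order of gene identifier), the 5 farthest, the 2 on either side of the boundary, the 6 widest of each cell type alone, the knockout's deep peaks, and members of 12 gene lists (293 symbols, 0 unmatched). Some genes that this rule names are not reported here. The rule, the members and the lists were chosen with earlier results of these data known. The design text calls replicates biological. The labels do not say that a replicate letter marks a shared culture or day, so letters were not treated as pairs. Same-letter correlations were 0.00880, 0.0401 and 0.108, and different-letter ones ran from -0.0718 to 0.0436. These values cannot settle whether letters mark pairs.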

Additional observations from a re-analysis of the deposited data

How the results depend on the processing

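The 5 comparisons of EBs with ESCs could not pass the threshold with 3 libraries a group, so their tests say nothing about stability. The deep share of mRNA peaks was lower in EBs under each alternative run (leave-one-out range -5.01 to -1.05), and the direction of the other 4 turned under some. The width difference turned to 29.2 bp with the same number of widest peaks per library and to 16.2 bp without ESC replicate A (leave-one-out range -25.3 to 16.2). The share of 3' UTR peaks turned to 2.02 and 0.312 percentage points without ESC replicate C and EB replicate C (lowest -4.56), and to 0.745 without repeat-centred peaks. The distance turned to 11.3 nt without ESC replicate C (lowest -69.7). GGAC turned to -1.95 and -2.45 without ESC replicate C and EB replicate C (highest 3.25), and to -1.54 without repeat-centred peaks. With the replicate block, the difference in deep share stayed -3.54 percentage points and the smallest possible p is 0.25, so no call could change.

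Deep minus stop codon differences kept their direction throughout. With 5 libraries p was 0.0625, with ranges of -6.30 to -4.67 percentage points for GGAC, -31.6 to -27.5 bp for width and -11.2 to -8.53 points for peaks found again. GGACT in place of GGAC gave -1.50 (p = 0.09375, exact permutation).

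ESC-only and EB-only regions numbered 11 and 21 beyond 500 nt and 33 and 58 with overlap of at least 50%. With equal lists the ESC count was 32. Leave-one-out gave 27 to 191 and 42 to 192, and the EB count was 119 without ESC replicate B. The knockout overlap was 0.325% beyond 500 nt. It was 0.0521% without repeat-centred peaks in the ESC and knockout lists, an alternative chosen after seeing the data. The widths of the 12 widest regions moved by less than their spread when any library was left out. Depth could not be assessed from positions, and the cause of these changes was not tested.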
